A study of Mus musculus with 12 samples.

Results

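NF-kB is described here through 10 genes that were selected by symbol: the 5 subunit genes Rela, Relb, Rel, Nfkb1 and Nfkb2, the 3 inhibitor genes Nfkbia, Nfkbie and Tnfaip3, and the 2 adhesion molecule genes Icam1 and Vcam1. They are 10 of the 24062 genes counted. The libraries came from 6 female C57BL/6N mice on a chow diet. Liver and gastrocnemius, a calf muscle, were taken from each animal, which gives 4 groups of 3 libraries. Animals 6, 8 and 9 were wild type (WT) and aged 9.0, 9.0 and 7.4 weeks. Animals 5, 7 and 12 carried the R135W substitution on both copies of Mars2, the gene of the mitochondrial methionyl-tRNA synthetase, and were aged 9.0, 7.4 and 8.6 weeks. How the allele was made is not given in the sources used here, and the labels list no treatment for either genotype. The question was whether the R135W genotype changed the NF-kB genes, and whether it did so alike in liver and muscle.

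NF-kB is a family of dimeric transcription factors. In the canonical pathway, RELA or c-REL pairs with p50, the product of Nfkb1, and is held in the cytoplasm by IkB proteins until the IKK kinase complex marks the IkB for destruction. In the non-canonical pathway, the NIK kinase drives processing of the Nfkb2 product to p52, which pairs with RELB. Several genes of the system, among them Relb, Nfkb1, Nfkb2, Nfkbia, Nfkbie and Tnfaip3, are themselves NF-kB targets, and endothelial and immune cells use ICAM1 and VCAM1 to bind passing leukocytes.

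The promoter sequence of 7 of the 10 genes was found in the RefSeq table (GRCm38.p6). Relb, Nfkb1 and Vcam1 had no entry. The 250 bases before each annotated start were searched on both strands for the NF-kB consensus decamer (GGG, a purine, any pair of bases, a pair of pyrimidines, CC). They were also searched for the nonamer GGAAATTCC, which was added after the windows had been read and can overlap the decamer. The 4 windows below are printed because they hold a match and belong to 2 genes that rose in R135W liver (Nfkb2 and Icam1) and to 2 inhibitor genes that did not pass the test there (Nfkbia and Tnfaip3). Each is written 5′ to 3′ on the gene's strand, ends 1 base before the start, and has the matches in capitals. The Nfkb2 window lies at chr19:46304487-46304736 on the plus strand, the Icam1 window at chr9:21015690-21015939 on the plus strand, the Nfkbia window at chr12:55492648-55492897 on the minus strand and the Tnfaip3 window at chr10:19015411-19015660 on the minus strand.
Nfkb2: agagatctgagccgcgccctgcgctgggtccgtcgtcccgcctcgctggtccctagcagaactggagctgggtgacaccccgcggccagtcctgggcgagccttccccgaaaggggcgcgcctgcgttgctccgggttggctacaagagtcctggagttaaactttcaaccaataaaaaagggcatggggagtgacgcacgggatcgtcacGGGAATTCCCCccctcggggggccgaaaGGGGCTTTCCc
Icam1: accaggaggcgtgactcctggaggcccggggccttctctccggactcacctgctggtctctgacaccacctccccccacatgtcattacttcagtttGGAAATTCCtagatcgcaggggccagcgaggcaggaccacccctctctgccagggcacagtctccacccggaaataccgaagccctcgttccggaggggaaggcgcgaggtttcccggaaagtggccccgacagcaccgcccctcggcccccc
Nfkbia: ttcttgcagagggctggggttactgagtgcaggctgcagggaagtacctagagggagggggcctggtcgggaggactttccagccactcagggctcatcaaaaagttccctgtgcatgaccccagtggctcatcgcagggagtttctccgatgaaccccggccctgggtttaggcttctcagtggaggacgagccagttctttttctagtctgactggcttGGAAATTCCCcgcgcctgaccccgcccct
Tnfaip3: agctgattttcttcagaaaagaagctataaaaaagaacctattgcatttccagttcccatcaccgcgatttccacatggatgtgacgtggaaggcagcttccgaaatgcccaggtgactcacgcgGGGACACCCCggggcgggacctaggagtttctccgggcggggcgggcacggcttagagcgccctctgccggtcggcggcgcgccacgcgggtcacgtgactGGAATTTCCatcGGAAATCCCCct

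The printed Nfkb2 window held 3 decamer matches, beginning 39, 38 and 11 bases upstream of the start, of which the first 2 overlap. The 2 windows of its other annotated starts held 1 match each. The Nfkbia window held 1 decamer match 29 bases upstream, which contains the nonamer. The printed Tnfaip3 window held decamers 125 and 12 bases upstream and a nonamer 24 bases upstream, while the window of its other start held none. The Icam1 window held no decamer and 1 nonamer, 153 bases upstream. Rel (2 overlapping matches) and Nfkbie (1 match) also held decamers, and the Rela window held neither motif. Of 32851 windows of this length in the table, 7.25% held the decamer and 0.286% the nonamer. The interferon-stimulated response element core (GAAA, any pair of bases, GAAA), present in 2.98% of windows, was in none of the 7 genes' windows. The GAS motif TTCNNNGAA, present in 7.02%, was in the Icam1 window and in the printed Nfkb2 window. A match is a run of letters and was not tested for binding.

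Total counts were 20751583 to 26275128 in WT liver, 21513860 to 30460237 in R135W liver, 23992591 to 28669346 in WT gastrocnemius and 23895670 to 28480863 in R135W gastrocnemius. Summed levels of 9 hepatocyte markers were 93575 to 95675 CPM (counts scaled to library size) in WT liver, 75746 to 84481 CPM in R135W liver and 2.31 to 43.9 CPM in gastrocnemius, and those of 10 muscle fibre markers were 174854 to 223991 CPM in gastrocnemius and 12.0 to 35.8 CPM in liver, so each tissue label matched its markers. The highest hepatocyte sum in muscle was in R135W animal 12. Mars2 had 48 to 86 counts in WT liver, 51 to 120 in R135W liver, 302 to 314 in WT gastrocnemius and 232 to 252 in R135W gastrocnemius. A substitution need not change the transcript level, so these values do not check the genotype labels. In whole tissue, more cells of a type and more RNA per cell cannot be told apart. Libraries are 1 per animal and tissue, so the spread between replicates is the spread between animals.

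In R135W liver, Relb, Nfkb2 and Icam1 rose (2.76% of all tested genes did), and no member fell. All 10 members passed the filter on low counts in every comparison. With edgeR's quasi-likelihood test and Benjamini-Hochberg adjustment over 13935 genes, 3 of 10 members passed an adjusted p of 0.05, where 3.28% of all tested genes did. At an unadjusted p of 0.05, 7 of 10 members passed against 17.6% of all genes. Every R135W liver library lay above every WT liver library for 7 of 10 members, against 13.8% of all genes. The members were chosen with earlier results of these data known, so these comparisons with all genes are a description. The median log2 fold change was 0.58 over the members and -0.01 over all tested genes. In gastrocnemius none of the 10 members passed, and the median was 0.28. The plot of levels by library shows all 10 members in all 12 libraries.

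**Figure D1:**
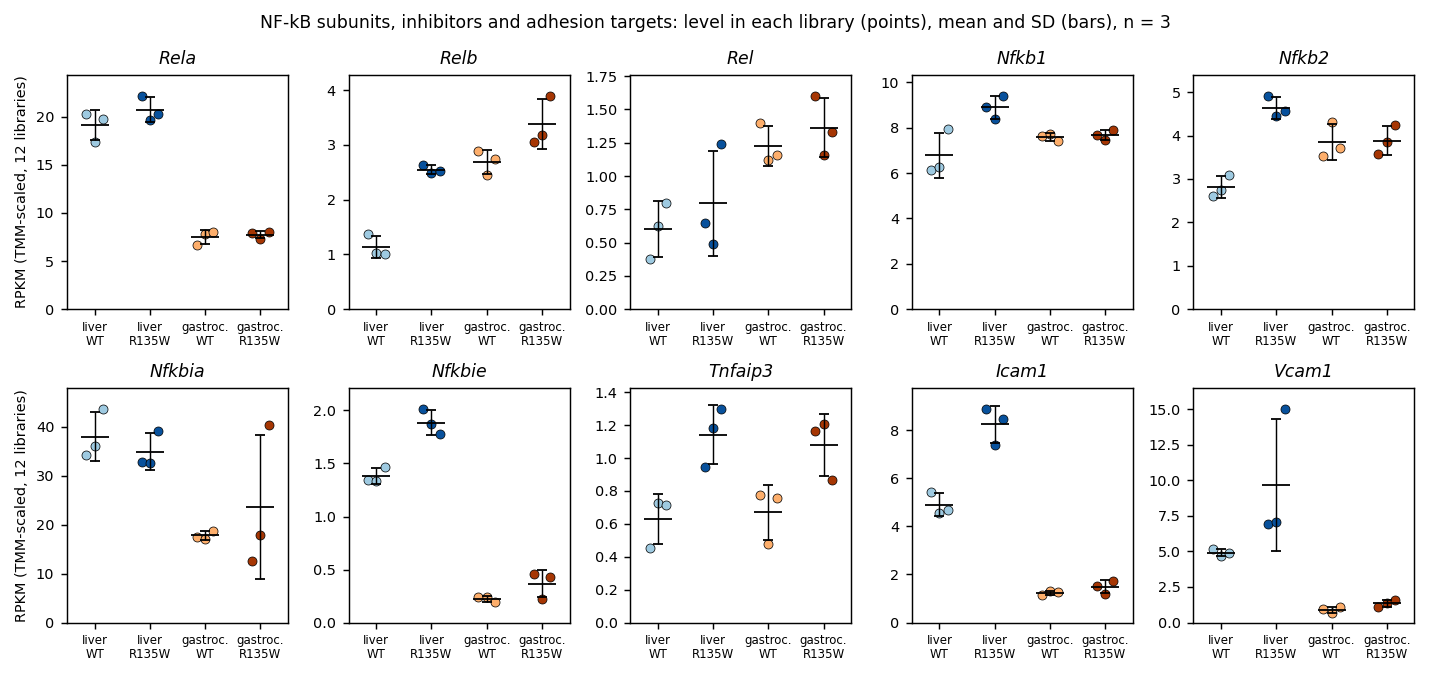
Level of each member (y axis: RPKM, counts relative to exon length and to library size scaled over all 12 libraries) in the 4 groups of tissue and genotype (x axis). Points are libraries, ordered by animal number with R135W 5, 7 and 12 and WT 6, 8 and 9 from left to right, and bars are the mean and SD of 3. The R135W liver points of Relb, Nfkb2 and Icam1 lie above all WT liver points, and 1 R135W library, animal 12, stands far above the other two for Vcam1 in liver and for Nfkbia in gastrocnemius.

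Relb (chr7:19606222-19629438, minus strand, mm10) encodes the partner of p52 in the non-canonical dimer. In WT liver it was at 3.11 CPM in animal 6, 2.29 in animal 8 and 2.27 in animal 9, and in R135W liver at 5.90 in animal 5, 5.62 in animal 7 and 5.59 in animal 12 (CPM scaled within liver). The groups were far apart and the 3 R135W animals nearly equal. The WT mean was 2.56 ± 0.482 CPM, from 46 to 65 counts, and the R135W mean 5.70 ± 0.172 CPM, from 116 to 183 counts (SD, n = 3 each). The log2 fold change was 1.16 (SE 0.19, edgeR adjusted p = 0.0180), the largest of the 10 members in liver.

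Nfkb2 (chr19:46304737-46312090, plus strand, mm10) encodes p100, the precursor of p52. Its liver level was 8.81, 9.15 and 10.4 CPM in WT animals 6, 8 and 9, and 16.5, 15.01 and 15.2 CPM in R135W animals 5, 7 and 12. The lowest R135W library was well above the highest WT library. Nfkb2 rose by a log2 fold change of 0.72 (SE 0.13, edgeR adjusted p = 0.0238).

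The canonical subunits gave smaller differences. Nfkb1, which encodes p105 and p50, was at 25.9, 26.2 and 33.4 CPM in WT liver (animals 6, 8 and 9) and at 37.3, 35.5 and 39.1 CPM in R135W liver (animals 5, 7 and 12). The groups did not overlap, but WT animal 9 lay close to the R135W range. The log2 fold change of 0.39 (SE 0.13) had an edgeR unadjusted p of 0.0160 and an adjusted p of 0.171. Rela, the main transactivating subunit, was at 56.4, 47.8 and 54.6 CPM in WT and at 61.0, 54.7 and 55.4 CPM in R135W liver, with overlapping groups and a log2 fold change of 0.11 (SE 0.11, edgeR adjusted p = 0.670). Rel, which encodes c-REL of lymphoid and myeloid cells, was low in liver. Its level was 1.01, 1.64 and 2.11 CPM in WT and 1.70, 1.31 and 3.24 CPM in R135W. R135W animal 12 held the highest Rel value and the other R135W animals lay inside the WT range. Its log2 fold change was 0.41 (SE 0.39, edgeR adjusted p = 0.643), and -0.07 without R135W animal 12.

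The inhibitors differed among themselves in liver, and none of the 3 passed the adjusted threshold. Tnfaip3 encodes A20, a ubiquitin-editing enzyme that shuts off signalling to IKK. It was at 2.15, 3.38 and 3.36 CPM in WT animals 6, 8 and 9 and at 4.43, 5.57 and 6.02 CPM in R135W animals 5, 7 and 12. Its groups did not overlap, with a log2 fold change of 0.85 (SE 0.23) and an edgeR adjusted p of 0.0913. Nfkbie, which encodes IkB epsilon, was at 3.35, 3.28 and 3.64 CPM in WT and 4.96, 4.65 and 4.34 CPM in R135W liver. The groups did not overlap here either, and the log2 fold change was 0.44 (SE 0.16, edgeR adjusted p = 0.213). Nfkbia, which encodes IkB alpha, was at 55.4, 58.0 and 70.5 CPM in WT and 52.8, 53.0 and 62.5 CPM in R135W liver. Nfkbia was the only member with a negative liver difference, a log2 fold change of -0.13 (SE 0.13, edgeR adjusted p = 0.668), and its groups overlapped.

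Icam1 (chr9:21015960-21028796, plus strand, mm10) encodes a ligand of the leukocyte integrins LFA-1 and Mac-1. In liver it was at 14.2, 11.8 and 12.2 CPM in WT animals 6, 8 and 9 and at 22.9, 19.3 and 21.7 CPM in R135W animals 5, 7 and 12. Each R135W library was above each WT library, and Icam1 rose by a log2 fold change of 0.74 (SE 0.13, edgeR adjusted p = 0.0229). Vcam1, which encodes the ligand of integrin alpha-4 beta-1, was at 18.05, 16.06 and 17.05 CPM in WT liver. In R135W liver Vcam1 was at 24.0 and 24.6 CPM in animals 5 and 7 and at 51.5 CPM in animal 12. The groups did not overlap, and 1 R135W library was more than both others together. The log2 fold change was 0.97 (SE 0.28, edgeR adjusted p = 0.113), and 0.51 without R135W animal 12 (adjusted p = 0.0897).

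None of the 3 liver calls held in every fit that left out a single library. Of the 6 fits that each left out 1 liver library, Relb passed in 2, without WT 6 and without R135W 12. Icam1 passed in 1, without WT 6, and Nfkb2 passed in none, with adjusted p-values of 0.0512 to 0.0884. The log2 fold changes in these fits stayed between 1.08 and 1.32 for Relb, 0.66 and 0.79 for Nfkb2, and 0.69 and 0.83 for Icam1. With age as a covariate the adjusted p of Nfkb2 was 0.0514, and Relb and Icam1 passed.

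**Figure D2:**
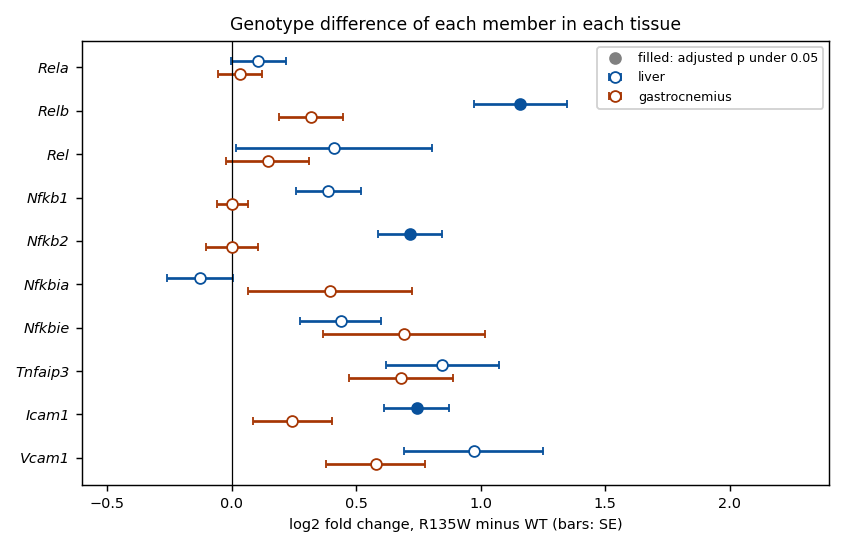
Log2 fold change of R135W against WT (x axis, bars are SE) for each member (y axis) in liver and in gastrocnemius, from 3 animals per genotype. Filled points passed an adjusted p of 0.05. Only Relb, Nfkb2 and Icam1 in liver are filled, and the muscle points of Nfkb1 and Nfkb2 lie at 0.00.

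In gastrocnemius, 0 of 10 members passed the edgeR test over 13826 genes, of which 0.875% passed. DESeq2 and limma-voom also called 0 members. At an unadjusted p of 0.05, 3 members passed (11.5% of all genes did), and in the same 3, Relb, Tnfaip3 and Vcam1, every R135W library lay above every WT library (8.24% of all genes). Relb was at 6.22, 5.29 and 5.97 CPM in WT animals 6, 8 and 9 and at 6.62, 6.84 and 8.30 CPM in R135W animals 5, 7 and 12 (CPM scaled within gastrocnemius). The 2 groups were close together, with a log2 fold change of 0.32 (SE 0.13, edgeR adjusted p = 0.371). Tnfaip3 was at 3.498, 2.16 and 3.46 CPM in WT and 5.29, 5.43 and 3.85 CPM in R135W muscle, a log2 fold change of 0.68 (SE 0.21, edgeR adjusted p = 0.227). Vcam1 was at 3.13, 2.24 and 3.65 CPM in WT and 3.66, 4.55 and 5.18 CPM in R135W muscle. R135W animal 5 and WT animal 9 were almost equal for Vcam1, and the log2 fold change was 0.58 (SE 0.20, edgeR adjusted p = 0.295).

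The other muscle values overlapped between genotypes. Nfkb2 was at 11.3, 14.0 and 12.1 CPM in WT muscle and 11.6, 12.4 and 13.5 CPM in R135W muscle, and Nfkb1 was between 30.0 and 31.5 CPM in all 6 libraries. Both had a log2 fold change of 0.00 in muscle, with SE 0.10 and 0.06. Icam1 was at 2.85, 3.27 and 3.19 CPM in WT and 3.79, 2.99 and 4.26 CPM in R135W muscle (log2 fold change 0.24, SE 0.16, edgeR adjusted p = 0.620). Rela and Rel had log2 fold changes of 0.03 and 0.14. Nfkbie had only 12 to 27 counts per muscle library, and its log2 fold change of 0.69 had an SE of 0.33.

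The sign of the Nfkbia difference in muscle rested on 1 library. The WT libraries were at 27.2, 26.5 and 29.3 CPM, and the R135W libraries at 19.6 in animal 5, 27.6 in animal 7 and 61.7 in animal 12. Animal 12 was far above all others and animal 5 below all others. The log2 fold change was 0.39 (SE 0.33, edgeR adjusted p = 0.713), and -0.22 without R135W animal 12. That library also held the highest hepatocyte marker sum in muscle, 43.9 CPM or 0.0464% of the WT liver level, against 0.00244% to 0.00975% in the other 5 muscle libraries. Its part in the Nfkbia value was not tested.

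The difference between the tissues was tested as the interaction of genotype and tissue over all 12 libraries. None of the 10 members passed the adjusted threshold in edgeR, where 0.13% of 15414 genes did, and limma-voom called 0. DESeq2 called 1 member, Nfkb2 (adjusted p = 0.0258). At an unadjusted p of 0.05, 4 of 10 members passed in edgeR, all with the larger difference in liver, against 9.95% of all genes. The liver change exceeded the muscle change by 0.71 in log2 for Nfkb2 (SE 0.16, edgeR unadjusted p = 8.456e-04, adjusted p = 0.142). For Relb the excess was 0.84 (SE 0.22, edgeR unadjusted p = 0.00211, adjusted p = 0.182). It was 0.38 for Nfkb1 (edgeR adjusted p = 0.382) and 0.49 for Icam1 (edgeR adjusted p = 0.434). Tnfaip3, which gave log2 fold changes of 0.85 in liver and 0.68 in muscle, had an excess of only 0.16 (SE 0.33). With the adjustment over all genes, a different response of the NF-kB genes in the 2 tissues was not shown by edgeR.

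WT levels of most members differed between the tissues. In edgeR, 8 of 10 members passed for WT liver against WT gastrocnemius, where 81.5% of 14858 genes did, so this share is near the background. Nfkbie (log2 difference 2.65, SE 0.21), Vcam1 (2.48, SE 0.18), Icam1 (2.003, SE 0.14), Rela (1.37, SE 0.11) and Nfkbia (1.12, SE 0.11) were higher in liver, with edgeR adjusted p-values of at most 8.973e-06 (40.9% of all genes were higher). Relb (-1.22, SE 0.18, edgeR adjusted p = 1.695e-04), Rel (-0.99, SE 0.26, adjusted p = 0.00598) and Nfkb2 (-0.43, SE 0.13, adjusted p = 0.0124) were lower in liver (40.6% of all genes were). The Nfkb2 call was lost without WT animal 8 (adjusted p = 0.115). Nfkb1 and Tnfaip3 did not pass, with log2 differences of -0.14 and -0.06.

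The order of the 4 groups differed by gene on the CPM scale shared by all 12 libraries. For Icam1 and Vcam1 the order was R135W liver, WT liver, R135W muscle, WT muscle, with means of 20.9, 12.5, 3.77 and 3.15 CPM for Icam1 and 32.8, 16.7, 4.58 and 3.05 CPM for Vcam1. Neighbouring groups were apart except the 2 muscle groups of Icam1. Relb was highest in R135W muscle (7.43 CPM) and lowest in WT liver (2.50 CPM), and R135W liver (5.60 CPM) overlapped WT muscle (5.92 CPM). Nfkb2 was lowest in WT liver (9.25 CPM) and highest in R135W liver (15.3 CPM), and the muscle groups at 12.8 and 12.7 CPM lay between and overlapped each other. For Rel no neighbouring groups were apart.

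Per exon length, Nfkbia was the most abundant member in every group, at mean levels of 38.0 RPKM in WT liver, 34.9 in R135W liver, 17.8 in WT muscle and 23.6 in R135W muscle. In WT liver it was followed by Rela (19.1 RPKM) and Nfkb1 (6.77), then Vcam1 and Icam1 (4.91 and 4.90, overlapping), Nfkb2 (2.81), Nfkbie and Relb (1.38 and 1.14, overlapping), and Tnfaip3 and Rel (0.632 and 0.600, overlapping). In R135W liver Vcam1, Nfkb1 and Icam1 overlapped at 9.67, 8.90 and 8.24 RPKM, and Relb (2.55) stood above Nfkbie (1.89). In muscle the least abundant member was Nfkbie, at 0.223 RPKM in WT and 0.366 in R135W.

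The make-up of the subunit transcripts can be given as shares of the summed RPKM of the 5 subunits. Rela took 62.8% ± 2.76 in WT liver and 55.1% ± 1.56 in R135W liver (SD, n = 3 each). Relb took 3.74% ± 0.695 and 6.79% ± 0.200, and Nfkb2 9.24% ± 0.681 and 12.3% ± 0.297. Ranges of these 3 shares did not overlap between the liver genotypes, whereas the Nfkb1 share, 22.2% ± 2.24 and 23.7% ± 1.02, overlapped. In muscle Rela and Nfkb1 took near-equal shares, 32.7% ± 2.28 and 33.3% ± 1.16 in WT and 32.2% ± 0.891 and 32.0% ± 0.732 in R135W. The muscle share of Relb was 11.8% ± 1.30 in WT and 14.0% ± 1.27 in R135W, with overlapping ranges. These shares restate the levels above and are no separate evidence.

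**Figure D3:**
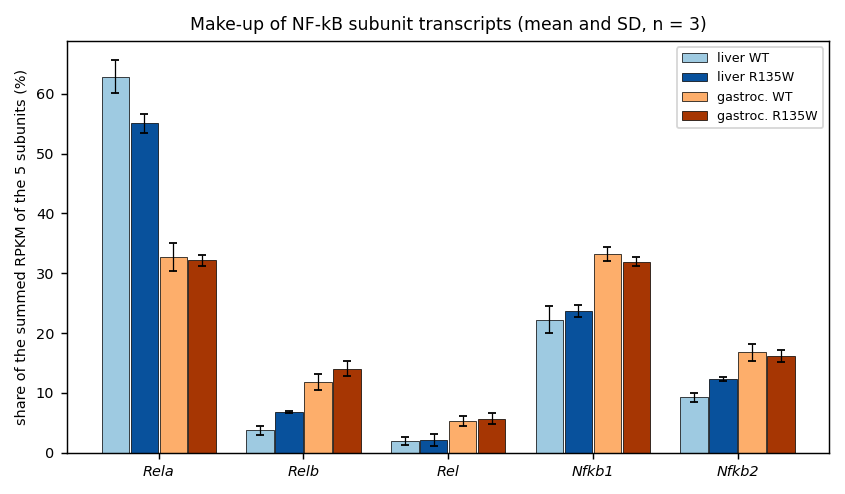
Share of each subunit (x axis) in the summed RPKM of the 5 NF-kB subunits (y axis, percent) in the 4 groups. Bars are means and error bars SD of 3 libraries. Rela holds 62.8% in WT liver and 32.7% in WT gastrocnemius, and the Relb and Nfkb2 bars are higher in R135W than in WT liver.

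Ratios within a library do not depend on its scaling to other libraries. The Relb to Rela ratio (RPKM) was 0.0593 ± 0.00842 in WT liver and 0.123 ± 0.00380 in R135W liver, 2.08 times as high and with no overlap. The Nfkb2 to Nfkb1 ratio was 0.417 ± 0.0248 in WT and 0.522 ± 0.0337 in R135W liver, again with no overlap, and 0.506 in both muscle groups. The Nfkbie to Nfkbia ratio was 0.0367 ± 0.00286 in WT and 0.0546 ± 0.00832 in R135W liver, without overlap. In muscle this ratio and Relb to Rela overlapped. Relb to Nfkb2 was 1.34 times as high in R135W liver and 1.22 times in R135W muscle, barely without overlap. Its highest WT and lowest R135W values were 0.529 and 0.537 in liver and 0.821 and 0.826 in muscle. The ratios Icam1 to Vcam1, Nfkbia to Rela, Rel to Rela and Rela to Nfkb1 overlapped in both tissues.

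Of the 7 lists that hold the 121 other pathway genes, the ligands and receptors gave the most calls in liver. The lists, like the members, were chosen with earlier results of these data known, so shares beside them are a description. Of 22 ligands and receptors tested, 6 rose (2.76% of all genes did) and none fell. At an unadjusted p of 0.05, 12 passed (17.6% of all genes did), and the median log2 fold change was 0.61. The log2 fold change was positive in 19 of the 22 and negative in Il1r1 (-0.49), Il1rap (-0.33) and Tlr5 (-0.14). The largest was that of Tnf (2.50, SE 0.67), which did not pass (edgeR adjusted p = 0.0918). These genes were named after their values were seen. All 6 that rose were Toll-like receptor genes. Tlr2, the receptor for bacterial lipopeptides, had a mean of 1.84 ± 0.319 CPM in WT and 6.05 ± 0.596 CPM in R135W liver (SD, n = 3; log2 fold change 1.71, SE 0.20, edgeR adjusted p = 0.00671). Tlr1, its partner, went from 1.26 ± 0.171 to 2.83 ± 0.155 CPM (1.16, SE 0.22, edgeR adjusted p = 0.0260). Tlr9, an endosomal DNA sensor, had 4 to 8 counts in WT and 25 to 46 in R135W liver (2.26, SE 0.35, edgeR adjusted p = 0.0163). The other 3 were Tlr6, Tlr7 and Tlr13, with log2 fold changes of 1.34, 1.52 and 1.31, named after their values were seen.

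No kinase or canonical adaptor gene passed the adjusted threshold in liver in the main edgeR fit. Of 22 genes of the IKK complex and canonical adaptors, 0 passed in edgeR and 6 passed at an unadjusted p of 0.05 (17.6% of all genes did), with a median log2 fold change of 0.19. In 9 of the 22, every R135W liver library lay above every WT library (13.8% of all genes). In 2, Chuk and Map3k7, every one lay below. The share of all genes that lay below is not given here, so nothing is read from that count. Chuk, which encodes the kinase IKK alpha, had the smallest p, at 141 ± 5.48 CPM in WT and 103 ± 1.90 CPM in R135W liver (log2 fold change -0.45, edgeR adjusted p = 0.0545). Chuk passed in 2 of 7 alternative fits of all libraries and in 0 of 6 liver fits that left out 1 library. In muscle every R135W library was also below every WT library for Chuk (log2 fold change -0.23, SE 0.09, edgeR adjusted p = 0.334). Of the 14 genes of the non-canonical arm, 9 were tested and 1 rose (2.76% of all genes did). Unadjusted, 5 passed (17.6% of all genes did), and the median was 0.63. The gene that rose was Tnfrsf11a, which encodes the receptor RANK, at 1.17 ± 0.0796 CPM in WT and 2.33 ± 0.0547 CPM in R135W liver (0.996, SE 0.22, edgeR adjusted p = 0.0441).

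The lists of other IkB family genes and co-regulators and of other negative regulators had medians near 0, with single genes on both sides. Of 5 other IkB family genes and co-regulators, 0 passed in edgeR and 1 passed unadjusted (17.6% of all genes did). The 1 was Nfkbid (log2 fold change 0.99, edgeR adjusted p = 0.199), and the list median was 0.05. Of 12 other negative regulators tested, 0 passed in edgeR and 3 passed unadjusted (17.6% of all genes did), with a list median of 0.02. Of those 3, Tnip1 and Pdlim2 had positive log2 fold changes (0.43 and 0.60) and Itch a negative one (-0.43). Pdlim2 and Itch were named after their values were seen. Tnip1, a partner of A20, had the smallest p of these, at 9.78 ± 1.49 CPM in WT and 13.2 ± 1.26 CPM in R135W liver (log2 fold change 0.43).

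Among 35 other textbook NF-kB targets, 23 were tested in liver, of which 3 rose (2.76% of all genes did) and none fell. Unadjusted, 13 passed (17.6% of all genes did), and the median log2 fold change was 0.63. In 10 of the 23, every R135W liver library lay above every WT library (13.8% of all genes), and in 3 every one lay below. The share of all genes that lay below is not given here. Of these 3, Selp encodes the adhesion molecule P-selectin (log2 fold change -0.58, SE 0.15, edgeR adjusted p = 0.0874). Xiap encodes an inhibitor of apoptosis (-0.28, SE 0.11, edgeR adjusted p = 0.235). The last was Sod2 (-0.27, SE 0.12, edgeR adjusted p = 0.300), which did not pass unadjusted. All 3 were named after their values were seen. Cxcl10, a chemokine that interferon also induces, went from 3.09 ± 1.29 to 13.1 ± 1.21 CPM (SD, n = 3 each; log2 fold change 2.09, SE 0.26, edgeR adjusted p = 0.00820). Ccl2, a monocyte chemokine, went from 0.660 ± 0.166 to 2.72 ± 0.914 CPM (2.03, SE 0.34, edgeR adjusted p = 0.0198). Bcl2a1d, of the BCL2 family and one of several near-identical copies, had 3 to 6 counts in WT and 19 to 24 in R135W liver, and its assignment among the copies is uncertain. In muscle, 17 of these targets were tested and 2 rose (0.875% of all genes passed there, in either direction). Tnfaip2 went from 33.0 ± 5.90 to 56.2 ± 8.49 CPM (0.77, SE 0.14, edgeR adjusted p = 0.0422), and Nos2, the inducible nitric oxide synthase, from 2.43 ± 0.276 to 4.31 ± 0.570 CPM (0.82, SE 0.16, edgeR adjusted p = 0.0494).

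The integrins and partners that meet ICAM1 and VCAM1 were tested for 9 of 10 genes in liver, and 3 rose (2.76% of all genes did). Itgal, the alpha chain of LFA-1, went from 13.5 ± 2.92 to 26.7 ± 1.15 CPM (log2 fold change 0.98, SE 0.16, edgeR adjusted p = 0.0182). Itgb2, the beta chain shared by the leukocyte integrins, went from 7.30 ± 2.34 to 16.99 ± 1.01 CPM (1.21, SE 0.21, edgeR adjusted p = 0.0226). Itgax, which is also a dendritic cell marker, went from 1.38 ± 0.486 to 3.88 ± 0.328 CPM (1.501, SE 0.26, edgeR adjusted p = 0.0219). The genes of integrin alpha-4 beta-1, to which VCAM1 binds, did not pass. Itga4 had a log2 fold change of -0.30 (SE 0.24, edgeR adjusted p = 0.568) and Itgb1 of 0.09 (SE 0.13, edgeR adjusted p = 0.787). Both were named after their values were seen. Of the 9 tested genes, 8 had positive log2 fold changes and 5 passed unadjusted (17.6% of all genes did). In muscle 0 of 10 passed in edgeR and 3 passed unadjusted (0.875% and 11.5% of all genes did). Of the other genes named above, Tlr2 and Cxcl10 passed in each of the 6 liver fits that left out 1 library. Itgal passed without R135W 5, WT 6, WT 9 and R135W 12, and Tlr9 without R135W 5, WT 6 and R135W 12. Ccl2 passed without R135W 5 and R135W 12, Itgax without R135W 5 and WT 8, Itgb2 without WT 9, and Tlr7 without R135W 5 and WT 9. Tlr1, Tlr6, Tlr13, Tnfrsf11a and Bcl2a1d in liver and Tnfaip2 and Nos2 in muscle passed in 0 of 6. Several calls also depended on the fit. Tlr6 passed in 2 of 7 alternative fits of all libraries (edgeR adjusted p = 0.0518 with RLE factors, and 0.100 in DESeq2). Tnfrsf11a passed in 4 of 7 and Bcl2a1d in 4 of 6. Tlr1 and Tlr13 passed in 6 of 7, all but the fit with age. In muscle, Nos2 passed in 3 of 7 and Tnfaip2 in 6 of 7, all but the fit of 12 libraries (adjusted p = 0.376).

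**Figure D4:**
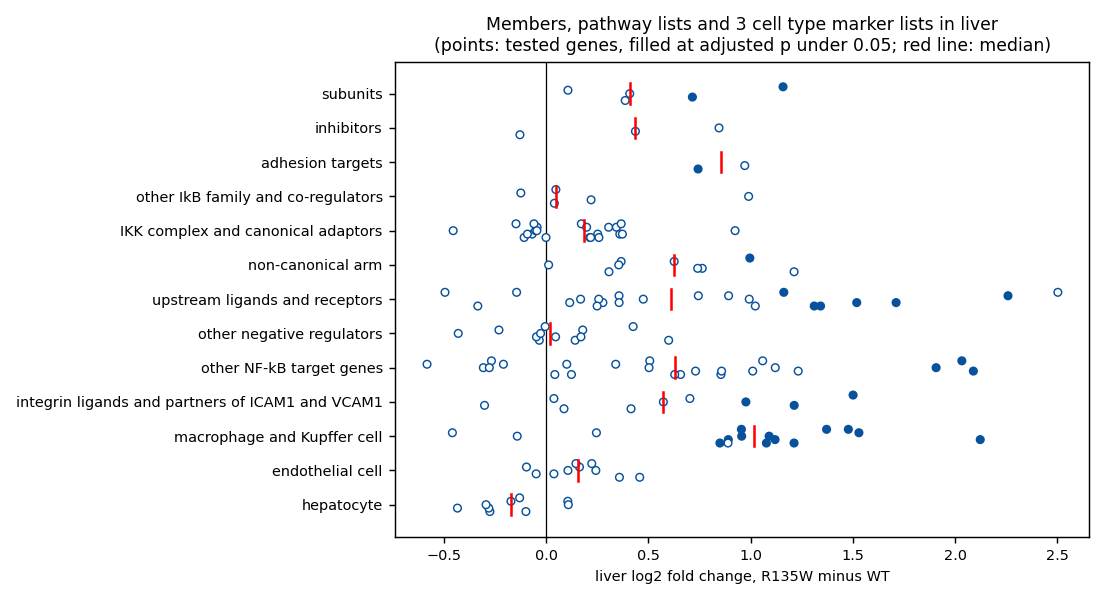
Liver log2 fold change of R135W against WT (x axis) for each tested gene of the 3 member roles, the 7 pathway lists and 3 of the marker lists (y axis). Filled points passed an adjusted p of 0.05 and red lines are list medians. The medians of the ligands and receptors (0.61), the other targets (0.63) and the macrophage markers (1.02) lie to the right, and those of the other negative regulators (0.02) and the hepatocyte markers (-0.17) lie near or below 0.

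Many markers of immune cells, but not all, were higher in R135W liver. Beside the marker counts, 2.76% of all tested genes rose in liver and 17.6% passed unadjusted. Of 16 macrophage and Kupffer cell markers, 12 rose, with a median log2 fold change of 1.02. Their summed level ran from 436 to 680 CPM in the WT livers and from 1109 to 1156 CPM in the R135W livers, and no marker was at 0. Among them Mertk and Cd163 had negative log2 fold changes (-0.14 and -0.46), and Mrc1 (0.25) did not pass. These genes were named after their values were seen. Of the monocyte markers 3 of 4 tested rose, of the NK cell markers 2 of 5, and of the B cell and dendritic cell markers 1 of 5 and 1 of 8. The dendritic cell call was Itgax, which is also in the integrin list above. T cell (7 tested) and neutrophil (3 tested) markers gave 0 calls in edgeR, with 3 and 2 unadjusted. Of 10 endothelial markers 0 passed in edgeR and 2 passed unadjusted, with summed levels of 203 to 322 CPM in the WT livers and 256 to 332 CPM in the R135W livers. Hepatocyte markers were lower as a sum in every R135W liver, 75746 to 84481 CPM against 93575 to 95675 CPM, though 0 of 9 passed in edgeR and 1 passed unadjusted, with a list median of -0.17. Of 10 fibroblast and stellate cell markers 1 rose, the collagen gene Col1a1 (log2 fold change 0.67, SE 0.14, edgeR adjusted p = 0.0455, named after its values were seen), and the list median was -0.05. The part of these cells in the liver values of Relb, Nfkb2, Icam1 and the lists above was not tested.

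In gastrocnemius the macrophage markers did not separate the genotypes, with sums of 71.7 to 89.5 CPM (WT) and 75.3 to 96.3 CPM (R135W). Of 10 tested, 0 passed, adjusted or unadjusted (0.875% and 11.5% of all genes did). Endothelial markers did separate the genotypes, with sums of 244 to 269 CPM (WT) and 308 to 339 CPM (R135W). Of 9 tested, 1 rose (Kdr, the VEGF receptor, log2 fold change 0.77, edgeR adjusted p = 0.00918, named after its values were seen, adjusted p = 0.0526 without WT 8 and 0.102 in the fit of 12 libraries) and 7 passed unadjusted, all with positive differences, with a list median of 0.29. The other 2, Stab2 and Lyve1, were at log2 fold changes of -0.36 and -0.35 (edgeR unadjusted p = 0.0659 and 0.102). The summed satellite cell markers, a list that holds Vcam1 itself, reached 134 to 155 CPM (WT) and 162 to 185 CPM (R135W). The part of these cells in the muscle values of Icam1, Vcam1 and Tnfaip3 was not tested.

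The genes most like each called member over the 6 liver libraries were listed as a description, by Pearson's r of log2 CPM among 12738 genes. The 3 nearest to Relb were Cd22 (0.997), Ctsz (0.996) and Arhgdib (0.996). Those nearest to Nfkb2 were Ppard (0.997), Csrp2bp (0.997) and Meis3 (0.996). Those nearest to Icam1 were Ptpn6 (0.999), Htatip2 (0.997) and AF251705 (0.992). The 6 points share the genotype difference and the nearest genes were picked for their r. Over the 6 muscle libraries r for the 9 genes ran from -0.46 for Ptpn6 to 0.88 for Ctsz.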

How the data were processed

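Poly(A) RNA of liver and gastrocnemius from 6 mice was sequenced as 12 libraries. Per the submitters' processing notes, STAR 2.4.0 was the aligner. The deposited values are raw counts of read pairs over exons per gene symbol (UCSC mm10 genes), made by the authors with featureCounts 1.5.2 per the file headers, from primary alignments, without a strand option, and with a pair counted for every gene it overlaps. Nfkb2 shares 4 exon bases with Psd and Nfkbia 15 with Mir1198; the other members share no exon bases with another gene.

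Counts were tested with edgeR 4.0.16 in R 4.3.3 (TMM, filterByExpr, quasi-likelihood F test, two-sided, Benjamini-Hochberg over all tested genes, threshold 0.05), within each tissue for genotype, over 12 libraries for the interaction, and over the 6 WT libraries for tissue. SEs were derived from the fold change and its F value. CPM were scaled by TMM, and RPKM use exon length. The scripts were tested on simulated data. Alternatives were RLE factors, DESeq2 1.42.0, limma-voom (limma 3.58.1), other filters, age, a fit of 12 libraries, an animal block and leaving out libraries.

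The labels give both tissues of an animal 1 number, so numbers pair the samples; deviations of paired libraries from their group means correlated at -0.00189 to 0.0819. Members, lists and the motif search were chosen with earlier results of these data known. Named from each list were up to 3 called genes in liver and 2 in gastrocnemius with the smallest p, or the 1 with the smallest liver p where none passed, and for likeness the 3 genes with the highest r among those with at least 1 CPM. Likeness is printed for called members.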

Additional observations from a re-analysis of the deposited data

How the results depend on the processing

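Numbers of called genes moved with the test more than the fold changes of the members did. Against 457 genes in liver, DESeq2 called 781, age as a covariate gave 274 and the fit of all 12 libraries 1057; the members called were 3, and 5 with DESeq2, 2 with age and 6 with the fit of 12 libraries. The added calls were Tnfaip3 and Vcam1 with DESeq2 and with the fit of 12 libraries, and Nfkb1 with the latter (adjusted p = 0.0323). Leaving out 1 library gave 84 to 285 genes and 0 to 2 members. In gastrocnemius, against 121 genes, DESeq2 called 274 and the fit of 12 libraries 20, and leaving out 1 library gave 3 to 106, with 0 members in every fit. For the interaction, against 20 genes, DESeq2 called 184 and 1 member, limma-voom 7, and leaving out 1 animal gave 1 to 7. With the animal as a block the interaction gave 16 genes and 0 members, and the WT tissue difference 12033 genes and 8 members against 12113 and 8; the block changed no member's call. Leaving out a library both leaves fewer samples and removes the values of 1 animal, and the part of each was not tested. The cause of the other moves was not tested either.

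Signs turned only in fits that left out a library or animal, for log2 differences that passed no test; each is given with its lowest and highest value over those fits. In liver this was Rel, from -0.074 without R135W 12 to 0.68 without WT 9. In gastrocnemius, Rela ran from -0.045 (without WT 6) to 0.083 (without WT 9), Nfkb2 from -0.062 (without WT 6) to 0.092 (without WT 8), Nfkb1 from -0.011 (without WT 9) to 0.022 (without R135W 7), Nfkbia from -0.22 (without R135W 12) to 0.69 (without R135W 5) and Tnip1 from -0.031 (without R135W 12) to 0.12 (without R135W 7). In the interaction, Tnfaip3 ran from -0.14 (without WT 6) to 0.46 (without WT 8), Rel from -0.24 (without R135W 12) to 0.57 (without WT 9), Nfkbia from -0.79 (without R135W 5) to 0.0081 (without R135W 12) and Rela from -0.028 (without WT 8) to 0.18 (without WT 6). The WT tissue difference of Tnfaip3 ran from -0.36 (without WT 8) to 0.24 (without WT 6). The lowest counts in a library were those of Nfkbie in muscle (12) and of Rel (21), Tnfaip3 (45) and Relb (46) in liver. The lowest counts of Tnfaip3 (61), Vcam1 (63), Icam1 (70) and Rel (78) in muscle and of Nfkbie (66) in liver were not far above. The part of low counts in these results was not tested.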
